A study of Mus musculus with 9 samples.

Results

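The genes described here drive or hold back the first gap phase of the cell cycle, G1, in the mouse uterus. They are the D-type cyclins Ccnd1, Ccnd2 and Ccnd3, the E-type cyclins Ccne1 and Ccne2, the kinases Cdk4 and Cdk6, and the kinase inhibitors Cdkn1a, Cdkn1b and Cdkn2c. Every probe set of the deposited table whose platform annotation names 1 of these genes and no other was taken. This gave 27 probe sets for all 10 genes, of 45037 probe sets and 18193 genes in the series, and none of the 27 was left out for a low signal. Ccnd1 had 3 probe sets, Ccnd2 had 7, Ccnd3, Cdk4 and Cdk6 had 3 each, Ccne1, Cdkn1a and Cdkn1b had 2 each, and Ccne2 and Cdkn2c had 1 each. Probe sets of 1 gene are annotated to the same gene, were read on the same arrays and are not replicates.

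RNA of whole uteri was hybridised to 9 Affymetrix mouse expression arrays, 3 for each of 3 groups, all at gestation day (GD) 3.5, just before the embryo attaches. Mig-6 d/d mice carry 1 copy of a Pgr-driven Cre recombinase and floxed Mig-6 (gene symbol Errfi1, an inhibitor of the EGFR family), so that Mig-6 is deleted in cells that express the progesterone receptor. The double knockout, Mig-6 d/d Erbb2 d/d, carries the same Cre with floxed Mig-6 and floxed Erbb2, a receptor of the EGFR family, so both knockouts share the loss of Mig-6. Controls had no Cre and were floxed either at Mig-6 alone (Mig-6 f/f) or also at the second gene (Mig-6 f/f Erbb2 f/f), and which control array held which genotype is not given. The Cre allele and the deletions therefore cannot be told apart. All mice were on a mixed C57BL/6 and 129P2/OlaHsd background, and the knockouts and controls were mated to males to obtain pregnant uteri. The labels give an age of 2 weeks, while the study's methods describe adult mice. RNA was pooled from several mice of a genotype, and the sources do not say if each array had its own pool, so p-values measure only the spread between these arrays, which may be technical.

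In G1, D-type cyclins bind Cdk4 or Cdk6 and phosphorylate the retinoblastoma protein RB, which releases E2F transcription factors. E2F proteins turn on the E-type cyclins, which bind Cdk2 and carry the cell into S phase, while Cdkn1a (p21) and Cdkn1b (p27) hold cyclin-CDK complexes in check and Cdkn2c (p18) binds Cdk4 and Cdk6 directly. In the uterus, estrogen drives the epithelium to divide, and progesterone stops this before implantation. The comparisons ask how the G1 genes stood in uteri without Mig-6, and in uteri that lacked Erbb2 as well.

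The deleted genes were read first, as a check of the labels. Errfi1, at the brighter of its probe sets (1416129_at), had intensities of 454, 564 and 286 in controls, 15.1, 15.96 and 255 in Mig-6 d/d, and 76.0, 29.8 and 40.3 in the double knockout. The library labelled replicate 3 of Mig-6 d/d thus lay near the controls, and its other Errfi1 probe set (1419816_s_at) read 37.0 there against 33.7 to 65.1 in controls. Erbb2 (1424919_at) read 29.4, 36.7 and 45.7 in controls, 46.6, 39.5 and 44.5 in Mig-6 d/d, and 18.3, 9.88 and 18.5 in the double knockout. Whether these probe sets fall inside the deleted exons is not given. Outside the cell type markers, differences of Mig-6 d/d with an adjusted p under 0.05 are given with and without the library labelled replicate 3 of Mig-6 d/d.

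The cell makeup of the tissue also moved with the groups. The summed intensity of 12 epithelial markers (keratins, claudins, Epcam, Cdh1 and others) was 3861 to 6809 in controls, 10294 to 14311 in Mig-6 d/d and 3527 to 4719.8 in the double knockout, and 7 of the 12 increased in Mig-6 d/d against control. None of these 12 had a mean under 16 in any group. Over all genes, 4.35% were called in either direction in Mig-6 d/d against control, the share to set beside each marker count here. The library labelled replicate 3 of Mig-6 d/d had an epithelial sum of 14311, against 12839 and 10294 in replicates 1 and 2. Marker counts are given with that library only. All 10 stromal markers were lower in Mig-6 d/d than in the controls, with 1 called, and their sums were 23382 to 27999 in controls, 19946 to 23895 in Mig-6 d/d and 26936 to 28183 in the double knockout. Sums of 8 smooth muscle markers were 12735 to 16789, 8631 to 12015 and 15455 to 19079.7 in the same order of groups. Sums of 8 endothelial markers were 997 to 1087, 577 to 704 and 862 to 1069, with 3 of the 8 decreased in Mig-6 d/d. Sums of 8 leukocyte markers overlapped between all groups (594 to 743, 602 to 693 and 636 to 788), and all 6 embryo markers had means under 16 in every group. The part that the cell makeup had in the results for the G1 genes was not tested. In whole tissue, fewer cells of a type and less RNA per cell cannot be told apart.

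Ccnd1 was the 1 gene of the 10 with a call, and its 3 probe sets did not move alike. A probe set was called when limma gave an adjusted p under 0.05, taken over the 45037 probe sets, and the groups differed more than 1.5-fold. At 1417419_at, Ccnd1 fell about 3.14-fold in the double knockout against control and 2.86-fold against Mig-6 d/d. At 1417420_at it fell 1.56-fold against Mig-6 d/d, and at 1448698_at no comparison was called. No Ccnd1 probe set was called between Mig-6 d/d and control.

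The intensities of Ccnd1 1417419_at were 171, 181 and 170.3 in controls, 188, 138 and 154 in Mig-6 d/d, and 75.7, 46.8 and 48.2 in the double knockout. All 3 double knockout arrays lay below every other array, while Mig-6 d/d and control overlapped. The means were 174 ± 5.85 (SD, n = 3), 159.9 ± 26.0 and 56.9 ± 16.3. Against control the double knockout was lower by a log2 difference of -1.65 (SE 0.18, 95% confidence interval -2.06 to -1.24, limma, adjusted p = 0.0044). Against Mig-6 d/d it was lower by -1.52 (SE 0.18, interval -1.92 to -1.11, limma, adjusted p = 0.00255). Mig-6 d/d differed from control by -0.14 (interval -0.54 to 0.27, limma, adjusted p = 0.78). Without the library labelled replicate 3 of Mig-6 d/d, the difference between the knockouts was -1.54 (limma, adjusted p = 0.0113).

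Ccnd1 1417420_at read 377, 412 and 402 in controls, 489, 387 and 499.6 in Mig-6 d/d, and 357, 284 and 246 in the double knockout. The double knockout arrays were again the lowest 3 of the 9, but the nearest Mig-6 d/d array and the nearest double knockout array were only 387 and 357. The means were 397 ± 18.3, 459 ± 62.1 and 295 ± 56.7 (SD, n = 3 each). The double knockout was lower than Mig-6 d/d by a log2 difference of -0.64 (SE 0.15, interval -0.97 to -0.31, limma, adjusted p = 0.0306). This call was lost without the library labelled replicate 3 of Mig-6 d/d (-0.58, limma, adjusted p = 0.106), and also without Mig-6 d/d replicate 1 (-0.59, adjusted p = 0.109) or when the second double knockout array (-0.62, adjusted p = 0.0986) or the third (-0.52, adjusted p = 0.0933) was left out. Against control the double knockout differed by -0.44 (interval -0.77 to -0.11, limma, adjusted p = 0.442), which was not called. Mig-6 d/d differed from control by 0.20 (interval -0.13 to 0.53, limma, adjusted p = 0.55).

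Ccnd1 1448698_at read 269, 325 and 328 in controls, 326, 256 and 331 in Mig-6 d/d, and 364, 250.2 and 245 in the double knockout. The highest and the lowest of the 9 arrays were both double knockouts, and all groups overlapped. The log2 differences were -0.02 for Mig-6 d/d against control (interval -0.40 to 0.36), -0.12 for the double knockout against control (interval -0.50 to 0.26) and -0.10 between the knockouts (interval -0.48 to 0.28). These intervals reach neither the difference of -1.65 nor that of -1.52 seen at 1417419_at.

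**Figure D1:**
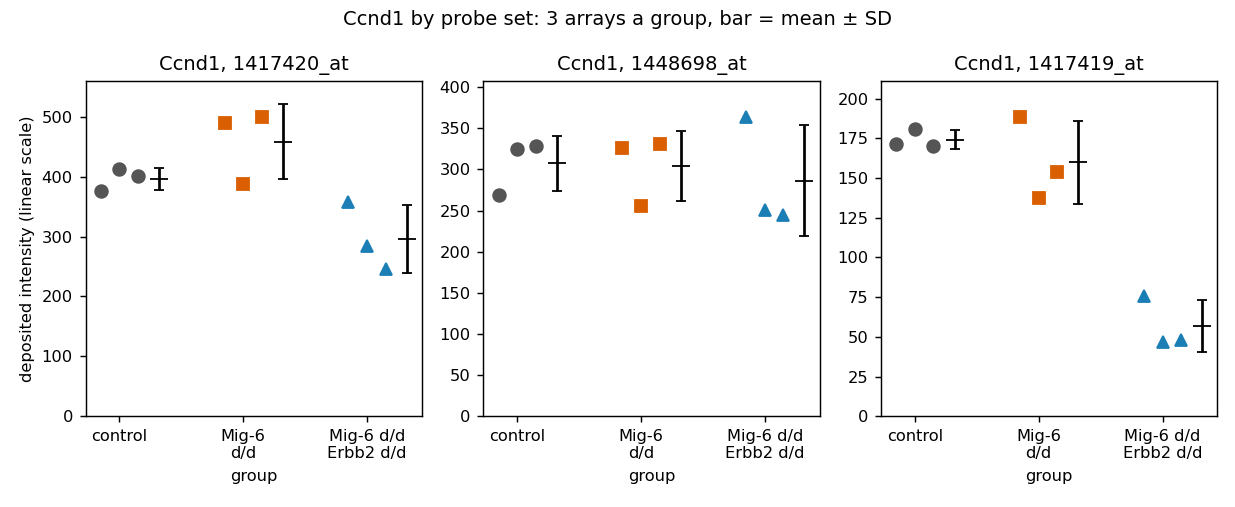
Deposited intensity (linear scale) of the 3 Ccnd1 probe sets, one panel each, by group. Points are arrays, bars are the mean ± SD of 3 arrays; the double knockout lies at 46.8 to 75.7 at 1417419_at, below all other arrays, and overlaps the other groups at 1448698_at.

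Whether the probe sets differed in their response was asked within arrays, by subtracting the log2 value of the brightest probe set of the gene (1417420_at) from each of the others and fitting the same model to all 16752 such pairs in the series. This test was chosen after the Ccnd1 values had been seen. For 1417419_at, the within-array log2 difference was -1.14, -1.19 and -1.24 in controls, -1.38, -1.49 and -1.70 in Mig-6 d/d, and -2.24, -2.60 and -2.35 in the double knockout. No group overlapped another. The difference changed by -1.21 in the double knockout against control (SE 0.15, limma, adjusted p = 0.00164) and by -0.87 against Mig-6 d/d (SE 0.15, limma, adjusted p = 0.00953), both called. Between Mig-6 d/d and control it changed by -0.34 (SE 0.15, limma, adjusted p = 0.298), which was not called. Of all pairs, 0.621%, 3.48% and 0.842% were called in these 3 comparisons. Both calls held in all 11 alternatives (each array left out, a replicate block, trended and robust variance), with ranges of -1.29 to -1.11 and -0.96 to -0.77, and between the knockouts with an adjusted p of 0.0199 (limma) without the library labelled replicate 3 of Mig-6 d/d. Such a difference shows unequal change, not which probe set reads Ccnd1 more truly, and where the probe sets lie on the transcript is not given.

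For 1448698_at the within-array difference went the other way, though this probe set itself was not higher in the double knockout. Between the knockouts 1448698_at differed by a log2 difference of -0.10, and the subtracted 1417420_at by -0.64. The within-array difference was -0.49, -0.34 and -0.29 in controls, -0.58, -0.60 and -0.59 in Mig-6 d/d, and 0.03, -0.18 and -0.01 in the double knockout, so that here too the groups did not overlap. Between the knockouts it was higher by 0.54 in the double knockout (SE 0.13, limma, adjusted p = 0.0432), which is under the 1.5-fold limit, and whose adjusted p was 0.0507 to 0.133 without control replicate 3 or without any 1 array of either knockout (0.123 without the library labelled replicate 3 of Mig-6 d/d). The changes against control were 0.32 in the double knockout (adjusted p = 0.432) and -0.22 in Mig-6 d/d (adjusted p = 0.439), both by limma and not called.

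**Figure D2:**
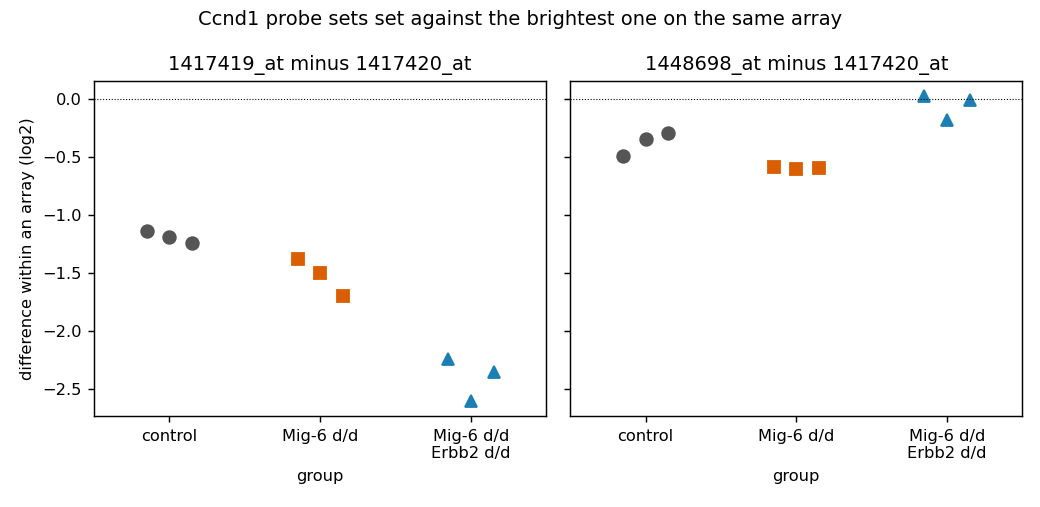
Log2 difference, within each array, between a Ccnd1 probe set and the brightest Ccnd1 probe set (1417420_at), by group; each point is 1 array and the dotted line marks no difference. At 1417419_at the double knockout arrays lie at -2.60 to -2.24, below all others, and at 1448698_at they lie at -0.18 to 0.03, above all others.

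The genes whose values followed Ccnd1 most closely over the 9 arrays were also listed, by Pearson correlation of log2 values. The search took 7102 genes with a probe set of mean intensity at least 50, each at its best-correlating probe set. The closest to 1417420_at were Purb (r = 0.945), Ifi30 (r = 0.942) and Paip2b (r = 0.935). In the order control, Mig-6 d/d, double knockout, the group means of Purb were 238, 250.3 and 204. Those of Ifi30 were 287.5, 314 and 237, and those of Paip2b were 108, 116 and 92.1. The closest to 1417419_at, added after its values were seen, were A930005H10Rik (r = 0.975), Iqgap1 (r = 0.96), which encodes a cytoskeletal scaffold protein, and Gfer (r = 0.956), which encodes a sulfhydryl oxidase. The group means of A930005H10Rik were 82.3, 68.8 and 25.0. Those of Iqgap1 were 789, 802 and 561, and those of Gfer were 59.8, 67.0 and 33.4. The 9 arrays share their groups, so the correlations follow the group means as well as the arrays.

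Over all 27 probe sets, none was called as increased and none as decreased in Mig-6 d/d against control, while 1.71% and 1.09% of all probe sets were. At an unadjusted p under 0.05, limma gave 4 of the 27, against 18.1% of all probe sets. In the double knockout against control 0 increased and 1 decreased, against 0.198% and 0.160% of all probe sets. Between the knockouts 0 increased and 2 decreased in the double knockout, against 2.38% and 2.75% of all probe sets. The groups did not overlap at 3, 6 and 8 of the 27 probe sets in these comparisons, against 21.0%, 11.7% and 26.9% of all. The members' share was below the background in Mig-6 d/d against control, above it in the double knockout against control and near it between the knockouts. The members' median log2 differences were -0.02, 0.02 and -0.05, beside -0.02, 0.00 and 0.02 over all probe sets. The comparisons share arrays: both knockouts were set against the same 3 controls, and Mig-6 d/d stands in both of its comparisons.

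**Figure D3:**
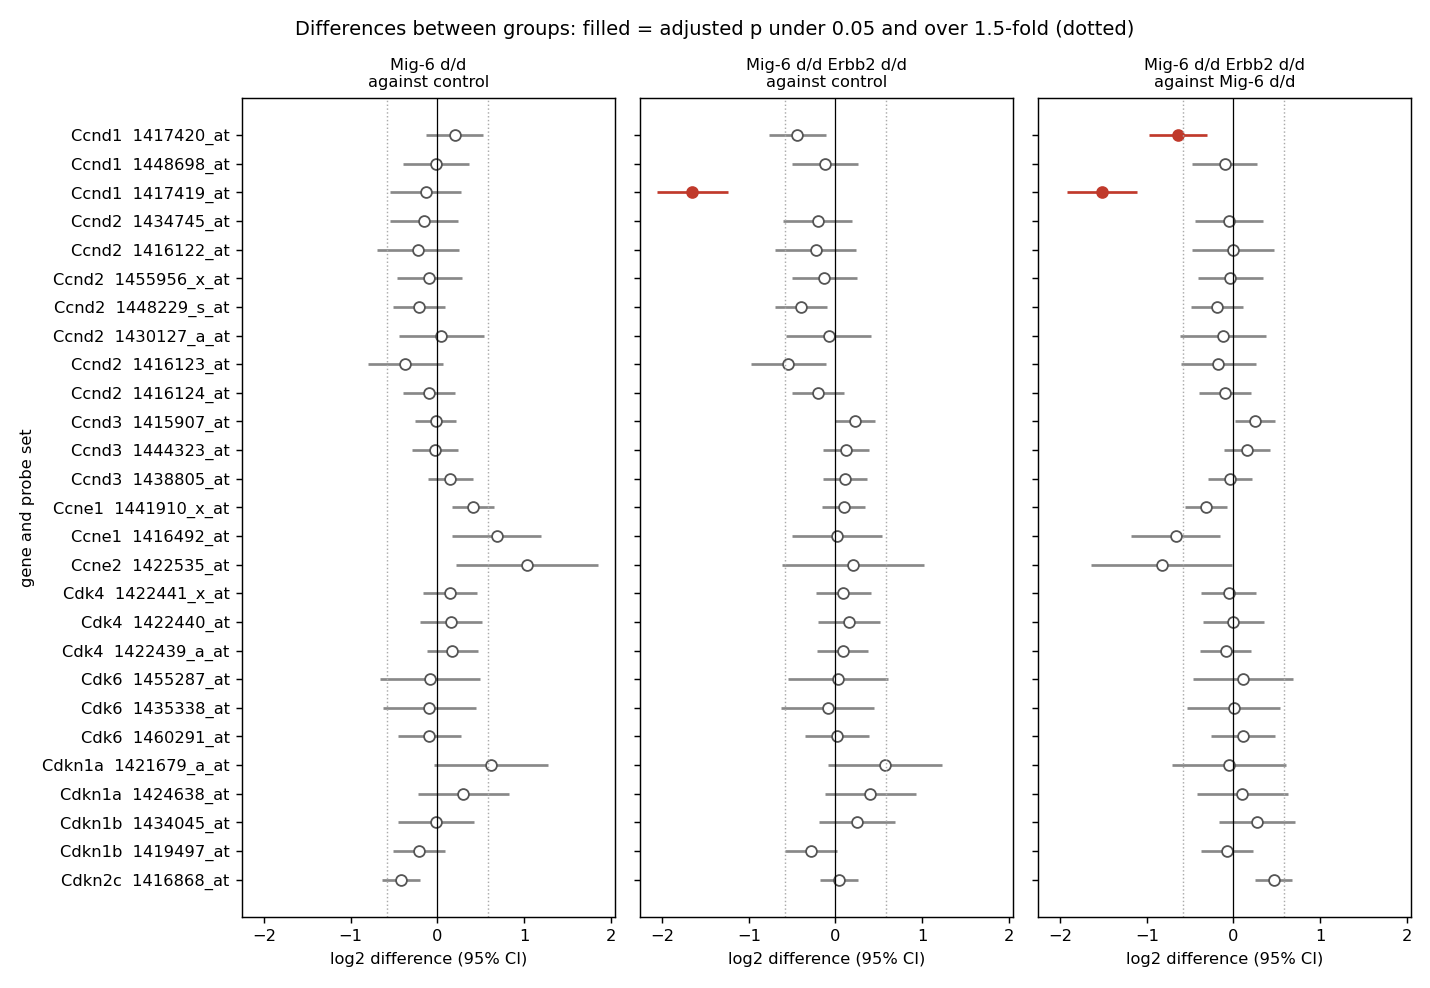
Log2 difference and 95% confidence interval (limma) of the 27 probe sets in the 3 comparisons; filled points had an adjusted p under 0.05 and a change over 1.5-fold, which the dotted lines mark. The 3 filled points are Ccnd1 at -1.65, -1.52 and -0.64, and most other intervals span 0.

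The other D-type cyclins had no call. All 7 Ccnd2 probe sets were lower in the double knockout than in control, with log2 differences from -0.55 to -0.08, and 6 of the 7 were lower in Mig-6 d/d, from -0.37 to 0.05. Ccnd2 1434745_at, its brightest, read 225, 267 and 226 in controls, 241, 223 and 183 in Mig-6 d/d, and 263, 210.5 and 159.96 in the double knockout. The arrays within the double knockout thus differed more from each other than the groups did. At 1 Ccnd2 probe set, 1448229_s_at, the double knockout arrays (164, 142 and 122) lay below the controls (188, 197 and 176), by a log2 difference of -0.40 (limma, adjusted p = 0.446), while Mig-6 d/d read 149, 189 and 149.

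At its brightest probe set Ccnd3 leaned the other way from Ccnd1, within the limits of the test. Ccnd3 1415907_at read 112, 119 and 127 in controls, 122, 108 and 123 in Mig-6 d/d, and 155, 131 and 133 in the double knockout. The double knockout lay above both other groups without overlap, by a log2 difference of 0.23 against control (interval -0.01 to 0.46, limma, adjusted p = 0.675) and 0.25 against Mig-6 d/d (interval 0.01 to 0.48, limma, adjusted p = 0.221). Neither was called. The other 2 Ccnd3 probe sets, 1444323_at and 1438805_at, had mean intensities of 8.96 and 8.70. In the double knockout they differed by 0.12 and 0.11 from control, and by 0.16 and -0.04 from Mig-6 d/d, none called.

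The kinases that the D-type cyclins activate hardly differed. Cdk4 at 1422441_x_at read 372, 375 and 325 in controls, 386, 448 and 356 in Mig-6 d/d, and 453, 378 and 319 in the double knockout. Over its 3 probe sets the largest log2 difference in any comparison was 0.17. Cdk6 at 1455287_at read 72.4, 72.7 and 139 in controls, 103, 62.9 and 94.0 in Mig-6 d/d, and 84.5, 103 and 88.8 in the double knockout, so that 1 control array was the highest of the 9. Its largest log2 difference over 3 probe sets was 0.11, but the intervals were wide, -0.66 to 0.49 for Mig-6 d/d against control at 1455287_at. The third Cdk6 probe set, 1460291_at, had a mean intensity of 5.72.

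The E-type cyclins were higher in Mig-6 d/d, though none passed the test. Ccne1 1441910_x_at read 45.4, 37.6 and 44.2 in controls, 50.2, 59.9 and 58.6 in Mig-6 d/d, and 43.5, 44.8 and 47.1 in the double knockout. Every Mig-6 d/d array lay above every other array. The log2 differences were 0.41 for Mig-6 d/d against control (SE 0.11, interval 0.16 to 0.65, limma, adjusted p = 0.0749) and -0.31 between the knockouts (SE 0.11, interval -0.56 to -0.07, limma, adjusted p = 0.13). The second Ccne1 probe set, 1416492_at, read 22.8, 21.0 and 13.6 in controls, 23.9, 39.6 and 28.4 in Mig-6 d/d, and 21.3, 20.4 and 15.4 in the double knockout. Here too the Mig-6 d/d arrays were the highest, with log2 differences of 0.68 against control (adjusted p = 0.144) and -0.67 between the knockouts (adjusted p = 0.127), both by limma. The double knockout differed from control by 0.09 and 0.02 at these probe sets.

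Ccne2 (1422535_at) read 38.2, 14.4 and 22.1 in controls, 39.6, 79.4 and 33.3 in Mig-6 d/d, and 22.7, 29.5 and 27.8 in the double knockout. Control replicate 1 stood within the Mig-6 d/d range, and the double knockout lay below Mig-6 d/d without overlap. The log2 difference of Mig-6 d/d from control was 1.04 (SE 0.37, interval 0.22 to 1.85, limma, adjusted p = 0.161), and the value was called only when control replicate 1 was left out (1.40, adjusted p = 0.0494). Between the knockouts it was -0.83 (SE 0.37, interval -1.65 to -0.01, limma, adjusted p = 0.239). Without the library labelled replicate 3 of Mig-6 d/d, the differences from control were 0.38 and 0.72 for the Ccne1 probe sets and 1.29 for Ccne2, with adjusted p of 0.203, 0.248 and 0.154 (limma). The epithelial marker sums given above were highest in the 3 Mig-6 d/d arrays. Among these arrays, replicate 2 had the lowest epithelial sum (10294) and the highest Ccne2 (79.4), and also the highest value at both Ccne1 probe sets. Replicate 3 had the highest sum (14311) and the lowest Ccne2 (33.3). The part of the epithelial markers in these values was not tested.

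The CIP/KIP inhibitors varied more between arrays than between groups. Cdkn1a 1421679_a_at read 40.9, 34.4 and 27.9 in controls, 67.4, 33.9 and 62.3 in Mig-6 d/d, and 63.9, 33.9 and 59.2 in the double knockout. In each knockout 2 of the 3 arrays lay above all controls and replicate 2 lay among them. The log2 differences from control were 0.62 in Mig-6 d/d (SE 0.30, limma, adjusted p = 0.312) and 0.57 in the double knockout (SE 0.30, limma, adjusted p = 0.734). The second Cdkn1a probe set, 1424638_at, read 33.1, 37.0 and 34.7 in controls, 49.5, 28.0 and 57.4 in Mig-6 d/d, and 55.6, 38.8 and 45.6 in the double knockout, where all 3 arrays were above the controls (0.40, limma, adjusted p = 0.776). Cdkn1b 1434045_at read 172, 169 and 233 in controls, 251, 173 and 150.3 in Mig-6 d/d, and 196, 250.1 and 234 in the double knockout. Its largest log2 difference was 0.27, between the knockouts (limma, adjusted p = 0.524). The second Cdkn1b probe set, 1419497_at, had a mean intensity of 5.68.

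Cdkn2c, the INK4 inhibitor, was lower in Mig-6 d/d than in the other groups by less than the fold limit. Cdkn2c (1416868_at) read 209, 176 and 179 in controls, 138, 147 and 136 in Mig-6 d/d, and 197, 194 and 189 in the double knockout. The Mig-6 d/d arrays lay below all others, and the double knockout lay within the control range. The log2 difference of Mig-6 d/d from control was -0.42 (SE 0.10, interval -0.64 to -0.21, limma, adjusted p = 0.0442), and the double knockout was higher than Mig-6 d/d by 0.46 (SE 0.10, interval 0.25 to 0.68, limma, adjusted p = 0.0206). The double knockout differed from control by 0.04 (interval -0.17 to 0.26). Without the library labelled replicate 3 of Mig-6 d/d the values were -0.40 (adjusted p = 0.134) and 0.44 (adjusted p = 0.0723), both by limma. The sums of smooth muscle and endothelial markers were also lower in every Mig-6 d/d array than in any other, while those of stromal markers overlapped with the controls, and the part of these markers in this value was not tested.

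**Figure D4:**
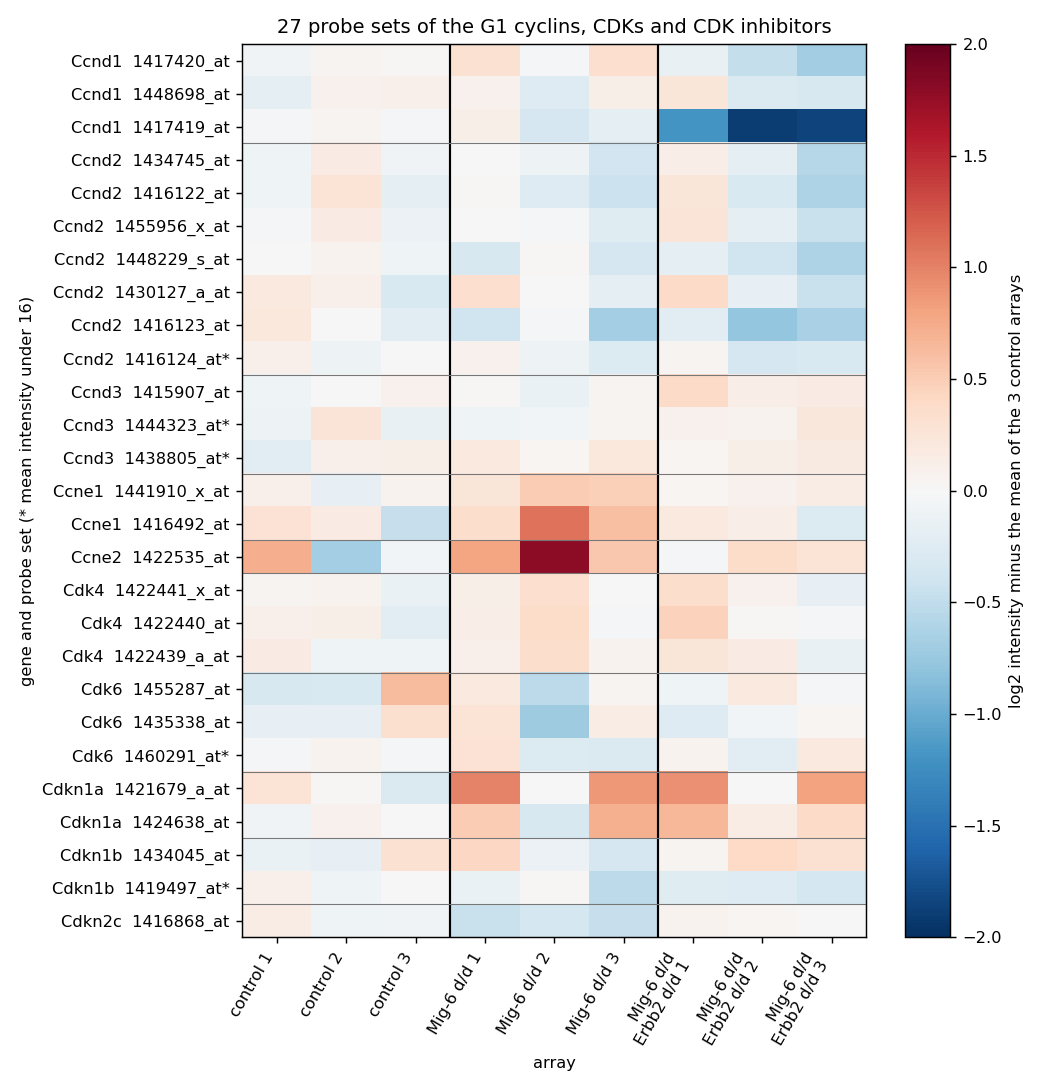
Log2 intensity of each of the 27 probe sets on each of the 9 arrays, minus the mean of the 3 control arrays (red higher, blue lower, scale -2 to 2; an asterisk marks a mean intensity under 16). Ccnd1 1417419_at is dark blue in the double knockout, Ccne2 is dark red in Mig-6 d/d replicate 2 and also red in control replicate 1, and Cdkn1a is red in replicates 1 and 3 of both knockouts.

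The genes around the members were read at the brightest probe set of each. Of 23 genes of the RB and E2F step, 2 increased and 0 decreased in Mig-6 d/d against control, where 4.35% of all genes were called in either direction. Those were E2f8, a repressor of the E2F family, and Rbl1, which encodes the RB relative p107. Of the 23 genes, 17 were higher, and their median log2 difference was 0.16, beside -0.03 over all genes. In the double knockout against control 0 of the 23 were called (0.407% of all genes) and the median was 0.00. Between the knockouts 0 increased and 2 decreased, E2f8 and the activator E2f3 (7.48% of all genes), and the median was -0.19.

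E2f8 read 41.0, 42.8 and 32.3 in controls, 57.7, 76.6 and 95.8 in Mig-6 d/d, and 37.6, 38.6 and 33.5 in the double knockout. The Mig-6 d/d arrays lay above all others, by a log2 difference of 0.97 against control (SE 0.18, limma, adjusted p = 0.0229), and the double knockout was lower than Mig-6 d/d by -1.04 (SE 0.18, limma, adjusted p = 0.00969). Rbl1 read 85.0, 44.3 and 68.1 in controls, 114, 118 and 108 in Mig-6 d/d, and 70.2, 75.1 and 70.3 in the double knockout. It was higher in Mig-6 d/d by 0.83 (SE 0.19, limma, adjusted p = 0.0457). E2f3 read 46.2, 34.3 and 46.2 in controls, 54.7, 54.0 and 52.7 in Mig-6 d/d, and 32.6, 41.3 and 30.4 in the double knockout, which was lower than Mig-6 d/d by -0.64 (SE 0.15, limma, adjusted p = 0.0293). Cdk2, the partner of the E-type cyclins, read 98.0, 79.8 and 94.6 in controls, 123, 133 and 142 in Mig-6 d/d, and 83.6, 99.1 and 96.4 in the double knockout. It differed by 0.55 in Mig-6 d/d against control (adjusted p = 0.0338) and by -0.51 between the knockouts (adjusted p = 0.0274), both by limma and under the fold limit. Tfdp2, an E2F partner, differed by -0.58 in Mig-6 d/d against control (limma, adjusted p = 0.0629). Without the library labelled replicate 3 of Mig-6 d/d, E2f8 and Rbl1 were no longer called against control (0.79 and 0.87, adjusted p = 0.0652 and 0.11, limma), E2f8 was still called between the knockouts (-0.86, adjusted p = 0.0296) and E2f3 was not (-0.66, adjusted p = 0.0771). Without the same library the values of Cdk2 were 0.50 against control (adjusted p = 0.113) and -0.46 between the knockouts (adjusted p = 0.096), both by limma. Rbl1 also lost its call without control replicate 2 or 3, or without any 1 array of either knockout, and E2f8 without control replicate 2, while E2f3 lost its call between the knockouts without any 1 Mig-6 d/d array and without replicate 1 or 3 of the double knockout. The epithelial marker sums given above moved in the same direction in the same comparisons, and their part was not tested.

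Of 14 measured genes that regulate the members' transcription or turnover (Trp53, also listed, had no probe set of its own), 1 increased and 0 decreased in Mig-6 d/d against control, where 4.35% of all genes were called. In the double knockout against control 0 of the 14 were called (0.407% of all genes), and between the knockouts 0 increased and 2 decreased (7.48% of all genes). Hes1, a Notch target and transcriptional repressor, read 53.0, 68.5 and 80.4 in controls, 115, 109.8 and 100.3 in Mig-6 d/d, and 51.1, 47.7 and 49.3 in the double knockout. It differed by 0.71 in Mig-6 d/d against control (limma, adjusted p = 0.0297) and by -1.13 between the knockouts (limma, adjusted p = 0.003). Id1, an inhibitor of basic helix-loop-helix factors, read 307, 320.4 and 395 in controls, 460.3, 563 and 408 in Mig-6 d/d, and 306, 295 and 236 in the double knockout. It was lower in the double knockout than in Mig-6 d/d by -0.77 (limma, adjusted p = 0.0179). Cks1b, which helps the ligase with Skp2 mark Cdkn1b for destruction, differed by 0.79 in Mig-6 d/d against control (limma, adjusted p = 0.134), and Myc by -0.42 (limma, adjusted p = 0.264). Without the library labelled replicate 3 of Mig-6 d/d, Hes1 was not called against control (0.76, adjusted p = 0.0692) but was between the knockouts (-1.19, adjusted p = 0.0107), as was Id1 (-0.88, adjusted p = 0.0276), all by limma. Hes1 against control also lost its call without control replicate 1 or 2 or any Mig-6 d/d array, and Id1 without replicate 1 of Mig-6 d/d or replicate 3 of the double knockout. Epithelial marker sums moved in the same direction in these comparisons too, and their part in the values of Hes1 and Id1 was not tested.

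**Figure D5:**
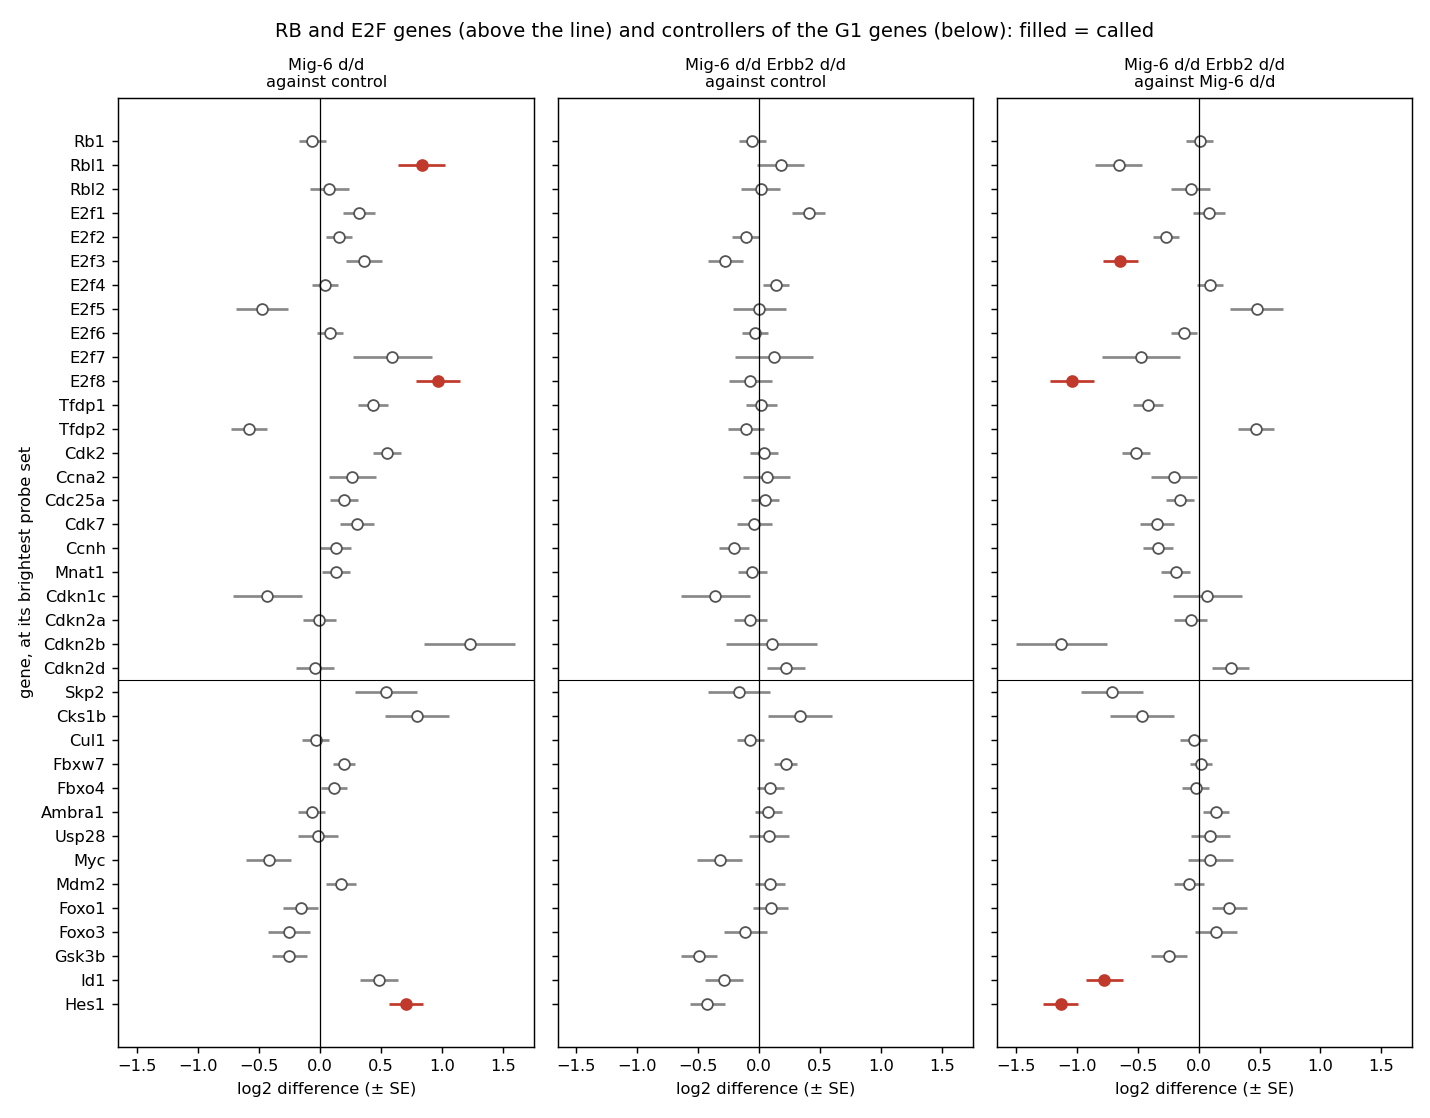
Log2 difference ± SE (limma) of 23 RB and E2F genes (above the line) and 14 regulators of the members (below it), each at its brightest probe set, in the 3 comparisons; filled points were called. E2f8, Rbl1 and Hes1 are filled in Mig-6 d/d against control, none in the double knockout against control, and E2f3, E2f8, Id1 and Hes1 between the knockouts.

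Promoters were read to show what sequence stands before the E2F-linked genes described above. RefSeq promoter windows on GRCm38.p6, from 250 bases before to 50 after the annotated start, were at hand for 7 of the 10 members, all but Ccnd1, Ccnd2 and Ccne2. They were searched on both strands for 4 E2F-type octamers, TTTCGCGC, TTTGGCGC, TTTCCCGC and TTTGCCGC, which share their first and last letters and do not contain one another. Of all 32851 windows, 2.26% held at least 1 of them, and 2.6% of all genes had such a window. No window of the 7 members did, which for so few genes is near that share. Windows of 8 of the 17 RB and E2F genes that had a window held an octamer. Ccne1 is printed as the E-type cyclin with a window, and Rbl1, E2f3 and E2f8 as the RB and E2F genes called above, of which E2f8 held no octamer. Capitals mark an octamer or its reverse complement, which lies 18 bases before the start in Rbl1 and 11 before it in E2f3, whose second window, not shown, held none. The windows are chr7:38107441-38107740 (minus strand), chr2:157204485-157204784 (minus strand), chr13:29986014-29986313 (minus strand) and, for E2f8, chr7:48881547-48881846 (minus strand). The match describes these letters and no bound factor, and its absence in Ccne1 and E2f8 holds for these windows alone.
Ccne1: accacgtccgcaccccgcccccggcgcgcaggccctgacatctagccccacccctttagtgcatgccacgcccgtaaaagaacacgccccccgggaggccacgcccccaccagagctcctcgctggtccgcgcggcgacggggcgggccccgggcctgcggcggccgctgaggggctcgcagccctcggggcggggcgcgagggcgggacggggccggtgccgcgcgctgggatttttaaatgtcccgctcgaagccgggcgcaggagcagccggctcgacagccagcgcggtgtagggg
Rbl1: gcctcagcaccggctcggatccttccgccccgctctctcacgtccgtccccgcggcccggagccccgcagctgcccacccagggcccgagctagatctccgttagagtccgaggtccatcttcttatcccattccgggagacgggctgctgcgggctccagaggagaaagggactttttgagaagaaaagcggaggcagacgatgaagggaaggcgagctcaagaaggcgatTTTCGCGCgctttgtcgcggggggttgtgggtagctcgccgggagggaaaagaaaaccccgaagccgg
E2f3: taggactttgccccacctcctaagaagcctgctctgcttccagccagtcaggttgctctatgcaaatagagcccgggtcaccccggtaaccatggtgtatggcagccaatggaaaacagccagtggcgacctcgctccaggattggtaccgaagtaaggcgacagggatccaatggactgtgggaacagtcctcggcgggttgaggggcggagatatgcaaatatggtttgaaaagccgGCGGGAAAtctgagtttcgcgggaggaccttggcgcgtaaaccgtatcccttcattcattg
E2f8: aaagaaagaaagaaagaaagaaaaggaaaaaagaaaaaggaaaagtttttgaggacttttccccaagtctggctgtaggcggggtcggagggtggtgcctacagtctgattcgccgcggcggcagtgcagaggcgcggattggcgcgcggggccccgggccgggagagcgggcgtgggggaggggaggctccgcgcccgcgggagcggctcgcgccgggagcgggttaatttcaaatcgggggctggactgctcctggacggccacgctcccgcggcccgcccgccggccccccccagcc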

How the data were processed

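RNA of whole mouse uteri at GD 3.5 was measured on 9 arrays in 3 groups of 3, assigned from the sample titles. The authors extracted RNA, pooled it from several mice of a genotype and normalized the arrays by quantile normalization in Bioconductor, with RMA named in the submitters' processing notes (no version is given). The deposited values are 1 intensity per probe set and array on a linear scale, from 2.11 to 11548.76, with array medians of 7.87 to 8.24. Signal over background could not be judged from these values, and precision is limited by the number of arrays. RMA draws low values together, which can narrow differences of dim probe sets.

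Log2 of the intensity was fitted in limma 3.58.1 (R 4.3.3) with the 3 groups in 1 model, without a filter, and p-values were adjusted by Benjamini-Hochberg over 45037 probe sets. A call needed an adjusted p under 0.05 and a change over 1.5-fold. Of the probe sets, 34945 had 1 symbol in the platform annotation, 932 had several and 9160 were unnamed here. Cell type markers and the genes around the members were each read at their brightest probe set. In the search for genes that followed Ccnd1, each gene was read at its best-correlating probe set. The same fit was tested on simulated arrays with known changes, and the outcome is not given here. Figures were drawn with matplotlib 3.10.9.

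The members, gene lists and tests were chosen with earlier results of these data known. Named were all probe sets of the members, the called genes of the 2 gene lists and, where fewer than 4 were called, the 4 with the smallest p in Mig-6 d/d against control, Errfi1 and Erbb2, and the 3 genes most like the brightest Ccnd1 probe set. The alternatives tried were leaving out dim probe sets, other normalization, centring, variance models and array weights, the 6 arrays compared, a replicate block, each array left out, no fold limit, a pseudocount of 16, leaving out probe sets that may share sequence, averaging a gene's probe sets, and an unpaired t-test on the same values, which the study names for other measurements; for the arrays its methods name a comparison of 2 samples with a fold limit. The within-array comparison of Ccnd1 probe sets was added after the data were seen. Same-numbered arrays were compared by the correlation of their deviations from the group means, which ran from -0.13 to 0.20, so the numbers were not taken as pairs.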

Additional observations from a re-analysis of the deposited data

Results flagged for a closer look

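Both results below compare the double knockout with Mig-6 d/d, which share the deletion of Mig-6, and both were tested in the model itself. No group lacked Erbb2 alone, so they do not show whether the loss of Erbb2 changed an effect of the loss of Mig-6. Ccnd1 1417419_at was lower in the double knockout than in Mig-6 d/d by a log2 difference of -1.52 (limma, adjusted p = 0.00255), and lower in 3 of 3 double knockout arrays than in every Mig-6 d/d array. Ccnd1 1417420_at was lower by -0.64 (limma, adjusted p = 0.0306), again in 3 of 3 arrays. The groups did not overlap at 26.9% of all probe sets in this comparison. Without the library labelled replicate 3 of Mig-6 d/d, 1417419_at stayed called (-1.54, limma, adjusted p = 0.0113). Without it 1417420_at did not (-0.58, limma, adjusted p = 0.106), and this call was also lost without certain other single arrays. The remaining Ccnd1 probe set, 1448698_at, was not called (-0.10, limma, adjusted p = 0.82). Epithelial markers fell in the same comparison, with 9 of 12 called, against 7.48% of all genes called in either direction. Their part in these results was not tested.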

How the results depend on the processing

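With 3 arrays a group and pooled RNA, small differences are beyond these data. Of the 3 called values, those of Ccnd1 1417419_at stayed called in 20 of 21 alternatives each, from -1.88 to -1.41 against control and -1.74 to -1.28 between the knockouts, and Ccnd1 1417420_at stayed called between the knockouts in 15 of 21. No called value changed sign; of 81 values, 29 changed sign in some alternative, none of them called and the largest 0.20 in size. An unpaired t-test with an unadjusted p under 0.05 and the fold limit gave 1 decreased probe set of the G1 genes against control and 2 between the knockouts. This limit is looser than that of the calls, and the share of all probe sets that passed it is not given here. In limma, an unadjusted p under 0.05 alone held for 7.63% of all probe sets in the double knockout against control and 20.2% between the knockouts. After Benjamini-Hochberg the t-test left 0 decreased probe sets of the G1 genes in the double knockout against control and 0 between the knockouts. A pseudocount of 16 left 1 decreased between the knockouts, and leaving out 1 array left 1 to 2. Without the fold limit 1 decreased in Mig-6 d/d against control and 1 increased between the knockouts, both Cdkn2c. Leaving out 1 array gave 0 to 1 increased in Mig-6 d/d against control, the 1 being Ccne2 without control replicate 1.

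Of the RB and E2F genes, the 2 increased in Mig-6 d/d against control became 0 with only the 6 arrays compared, under the t-test after Benjamini-Hochberg, with the pseudocount and with a gene's probe sets averaged, 1 with the replicate block, and 0 to 3 without 1 array; 1 decreased after a second quantile normalization and 0 to 1 without 1 array. Between the knockouts the 2 decreased became 4 with array weights, 1 with the replicate block or the pseudocount, 0 under the adjusted t-test and with probe sets averaged, and 1 to 3 without 1 array, while 0 to 1 increased without 1 array. The cause of these changes was not tested. The replicate block changed no call of the G1 genes.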
